A study of Mus musculus with 18 samples.

Results

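The deiodinases Dio1 and Dio2 and the thyroid hormone transporter Slc16a10 were followed across mouse thyroids of 2 genotypes on 2 diets. Every non-control array probe whose accession maps to one of these genes was taken, which gave 5 probes for 3 genes, of 41174 probes and 19096 genes with a probe on the array. All 5 probes passed the filter on dim probes, among 36333 tested probes, which cover 17936 named genes and include probes that match no gene. RNA came from thyroids of 1-month-old C57BL/6 mice, with 1 single-colour Agilent array per sample. The low-iodine diet was given for 6 days to 4 Glis3KO2 (KO2) and 4 wild-type (WT) mice, and 5 KO2 and 5 WT mice ate a normal diet. KO2 mice carry a targeted Glis3, the gene of a zinc finger transcription factor of the thyroid follicular cell. The sources used here give neither the deleted part of Glis3, nor whether all cells lack it, nor the sex of the mice.

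Thyroid hormone leaves the gland mainly as thyroxine, a prohormone with a low affinity for the nuclear receptors. Deiodinases are selenoenzymes of cell membranes that remove single iodine atoms. Dio1, the type 1 enzyme of thyroid, liver and kidney, can both activate thyroxine to triiodothyronine and inactivate it. Dio2, the type 2 enzyme, activates thyroxine inside cells and is known for its induction through cyclic AMP in brown fat, where it feeds heat production. Slc16a10 is a monocarboxylate transporter family member that carries aromatic amino acids and thyroid hormone across the plasma membrane.

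The stretch just upstream of each gene's start is printed because RNA levels of these genes are what the arrays compare. The sequences are RefSeq's for GRCm38.p6, are written 5′ to 3′ on the minus strand on which all 3 genes lie, and end at the last base before the transcript start that RefSeq's promoter table uses. For Dio1 and Dio2 that start is the gene's outer end, while the Slc16a10 stretch runs 16 bases into the gene's annotated span. The Dio1 stretch is chr4:107307169-107307418, the Dio2 stretch chr12:90739039-90739288 and the Slc16a10 stretch chr10:40142255-40142504. Capitals mark the palindromic cAMP response element TGACGTCA and the TATA box TATAAA wherever a search of both strands found them.
Dio1: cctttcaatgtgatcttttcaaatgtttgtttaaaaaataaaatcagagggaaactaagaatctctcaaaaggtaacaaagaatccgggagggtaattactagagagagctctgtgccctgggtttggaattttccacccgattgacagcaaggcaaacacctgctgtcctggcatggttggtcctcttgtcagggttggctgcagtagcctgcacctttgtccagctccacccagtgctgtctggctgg
Dio2: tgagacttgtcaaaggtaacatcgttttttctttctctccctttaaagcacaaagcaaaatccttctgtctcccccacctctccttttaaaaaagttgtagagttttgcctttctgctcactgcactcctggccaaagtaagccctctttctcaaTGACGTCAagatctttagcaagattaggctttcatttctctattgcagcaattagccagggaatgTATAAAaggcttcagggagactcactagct
Slc16a10: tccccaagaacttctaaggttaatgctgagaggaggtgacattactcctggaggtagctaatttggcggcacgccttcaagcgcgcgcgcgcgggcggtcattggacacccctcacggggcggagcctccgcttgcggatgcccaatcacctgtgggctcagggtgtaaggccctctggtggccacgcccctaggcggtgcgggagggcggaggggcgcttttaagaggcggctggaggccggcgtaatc
The Dio2 stretch held TGACGTCA with its first base 95 bases before the start, a motif present in 1.55% of 32851 such windows of all genes, and TATAAA 30 bases before the start, present in 12.4% of them. The Dio1 and Slc16a10 windows held neither. The thyroid hormone response half-site AGGTCA was in none of the 3 windows and in 14.02% of all. The short core CAAG of Nkx2-1, a thyroid lineage factor, occurred 2 times in the Dio1 window and 3 times in each of the others, and in 86.6% of all windows. GC content was 46.8% for Dio1, 41.6% for Dio2 and 64.4% for Slc16a10, against a median of 52.4% over all windows.

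Levels are given as log2 of the deposited processed signal minus the 75th percentile of the same array, so that 0 is a probe at that percentile. Slides 1 to 3 hold the 10 normal-diet arrays, and slides 4 and 5 hold all 8 of low iodine, which another scanner model read. Effects of diet and of the array set therefore cannot be told apart. Each slide holds both genotypes in equal numbers. The share of spots well above background ran from 60.1% to 90.6%, and was highest on WT replicate 2 of the low-iodine diet. The Y-linked gene Eif2s3y lay above the 75th percentile on 3 of 4 KO2 and 2 of 4 WT arrays of the low-iodine diet and was not well above background on any normal-diet array, so Y-linked RNA also differed between the diet sets. The 1 probe of Glis3 ran between −4.06 and −1.49 in KO2 and between −1.60 and −0.74 in WT on low iodine (KO2 minus WT −1.36, limma adjusted p = 0.0827), and between −5.46 and −4.16 in KO2 and −6.08 and −4.79 in WT on the normal diet (0.45, adjusted p = 0.793). Where that probe lies relative to the deleted part is not given, so it does not check the genotype labels. All 8 follicular cell markers were measured. The group mean of their average level was 2.97 in KO2 and 3.38 in WT on low iodine. On the normal diet it was 3.36 in KO2 and 2.95 in WT. The low-iodine mean includes the iodide importer Slc5a5, which fell steeply there. The median of the 8 marker differences, KO2 minus WT, was 0.02 on low iodine and 0.40 on the normal diet. Because thyroid tissue was measured whole, fewer cells of a type and less RNA per cell cannot be told apart.

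Dio1 (gene 13370, chr4:107291465-107307168, probe A_51_P403477) was the strongest signal of the set, with a mean level above that of 98.2% of tested probes and 18 of 18 arrays well above background. On low iodine its levels were 3.99, 3.83, 4.01 and 3.86 in KO2 thyroids and 4.66, 4.33, 4.65 and 4.63 in WT thyroids. Every KO2 array was below every WT array. The means were 3.92 ± 0.09 in KO2 and 4.57 ± 0.16 in WT (SD, n = 4 each), a difference of −0.65 (95% interval −1.15 to −0.14) that missed the threshold of limma with Benjamini-Hochberg adjustment over all probes (adjusted p = 0.105). Dio1 was thus 1.57-fold lower in KO2 on that diet as an estimate and not as a call.

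Normal-diet levels of Dio1 lay at 4.17, 5.37, 4.38, 5.09 and 4.97 in KO2 thyroids and at 4.97, 4.27, 4.88, 4.45 and 4.87 in WT thyroids. All WT values lay within the KO2 range. The means were 4.80 ± 0.50 in KO2 and 4.69 ± 0.31 in WT (SD, n = 5 each), a difference of 0.11 (95% interval −0.34 to 0.56, limma adjusted p = 0.922). Without KO2 replicate 2 the difference turned to −0.03. The genotype by diet interaction of Dio1, the low-iodine difference minus the normal-diet one, was −0.76 with a 95% interval of −1.43 to −0.08 and did not pass (limma adjusted p = 0.374). Within slides, KO2 minus WT was −0.57 and −0.72 on the 2 low-iodine slides and 0.40, 0.16 and −0.09 on the 3 normal-diet slides.

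Dio2 (gene 13371, chr12:90724552-90739038, probe A_51_P208603) showed the widest range among the 5 probes. On low iodine it lay at −2.94, −0.66, −3.02 and −2.68 in KO2 thyroids and at 0.69, 0.12, 0.25 and −0.49 in WT thyroids. Replicate 2 was the high KO2 array, and it too was below the lowest WT array. The means were −2.32 ± 1.12 in KO2 and 0.14 ± 0.49 in WT (SD, n = 4 each), a 5.53-fold lower estimate in KO2. The log2 difference of −2.47 had a 95% interval of −4.35 to −0.59 and missed the threshold (limma adjusted p = 0.0965).

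Normal-diet levels of Dio2 were −3.08, 2.14, 1.57, 1.14 and 0.01 in KO2 thyroids and −0.99, 0.95, −0.40, 1.17 and −0.95 in WT thyroids. KO2 replicate 1 was the lowest of the 10 arrays and KO2 replicate 2 the highest, so 1 genotype spanned the whole range. The means were 0.35 ± 2.07 in KO2 and −0.05 ± 1.04 in WT (SD, n = 5 each), with a difference of 0.40 (95% interval −1.28 to 2.08, limma adjusted p = 0.923). The difference was 1.26 without KO2 replicate 1 and −0.05 without KO2 replicate 2. Within slides, KO2 minus WT was −3.21 and −1.72 on the low-iodine slides and had both signs, at 3.13, 1.08 and −1.65, on the normal-diet slides. The interaction was −2.87 (95% interval −5.39 to −0.34, limma adjusted p = 0.362).

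Whether the low-iodine difference of Dio2 passed depended on the fit. The spread estimate shared by all 18 arrays includes the scatter among normal-diet KO2 thyroids. With the 8 low-iodine arrays fitted alone the same −2.47 passed (limma adjusted p = 0.0398), and so it did without KO2 replicate 1 of the normal diet (adjusted p = 0.0187). Quantile normalization gave −2.93 (adjusted p = 0.0266). Over all alternatives that keep every array, the adjusted p ran between 0.00939 and 0.113. The 0.00939 came from the fit with brown fat markers as a covariate, which was added after seeing the data. With 1 array left out at a time, the adjusted p ran from 0.0187 to 0.207. In 17 of these 18 fits the difference did not pass.

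No deiodinase or Slc16a10 probe passed in KO2 against WT on either diet or in the interaction, which is 0 of 5 against a background of 9.42% of all tested probes on low iodine, 0.694% on the normal diet and 0.68% in the interaction. Under an unadjusted p of 0.05, Dio1, Dio2 and probe 3 of Slc16a10 passed on low iodine, as did 22.7% of all tested probes. On the normal diet probe 3 alone passed, against 10.6% of all, and in the interaction Dio1 and Dio2, against 11.5%. Groups that do not overlap are not rare in these data. On low iodine 16% of all tested probes separated the genotypes as Dio1 and Dio2 did, and on the normal diet 2.88% did. In the self-test on simulated data at these sample sizes, 65% of probes changed by 2 on the log2 scale were recovered on low iodine and 77% on the normal diet. These shares are over randomly drawn probes and do not give the recovery of any 1 of the 5 probes. On low iodine the SE was 0.24 for Dio1 and 0.89 for Dio2.

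**Figure D1:**
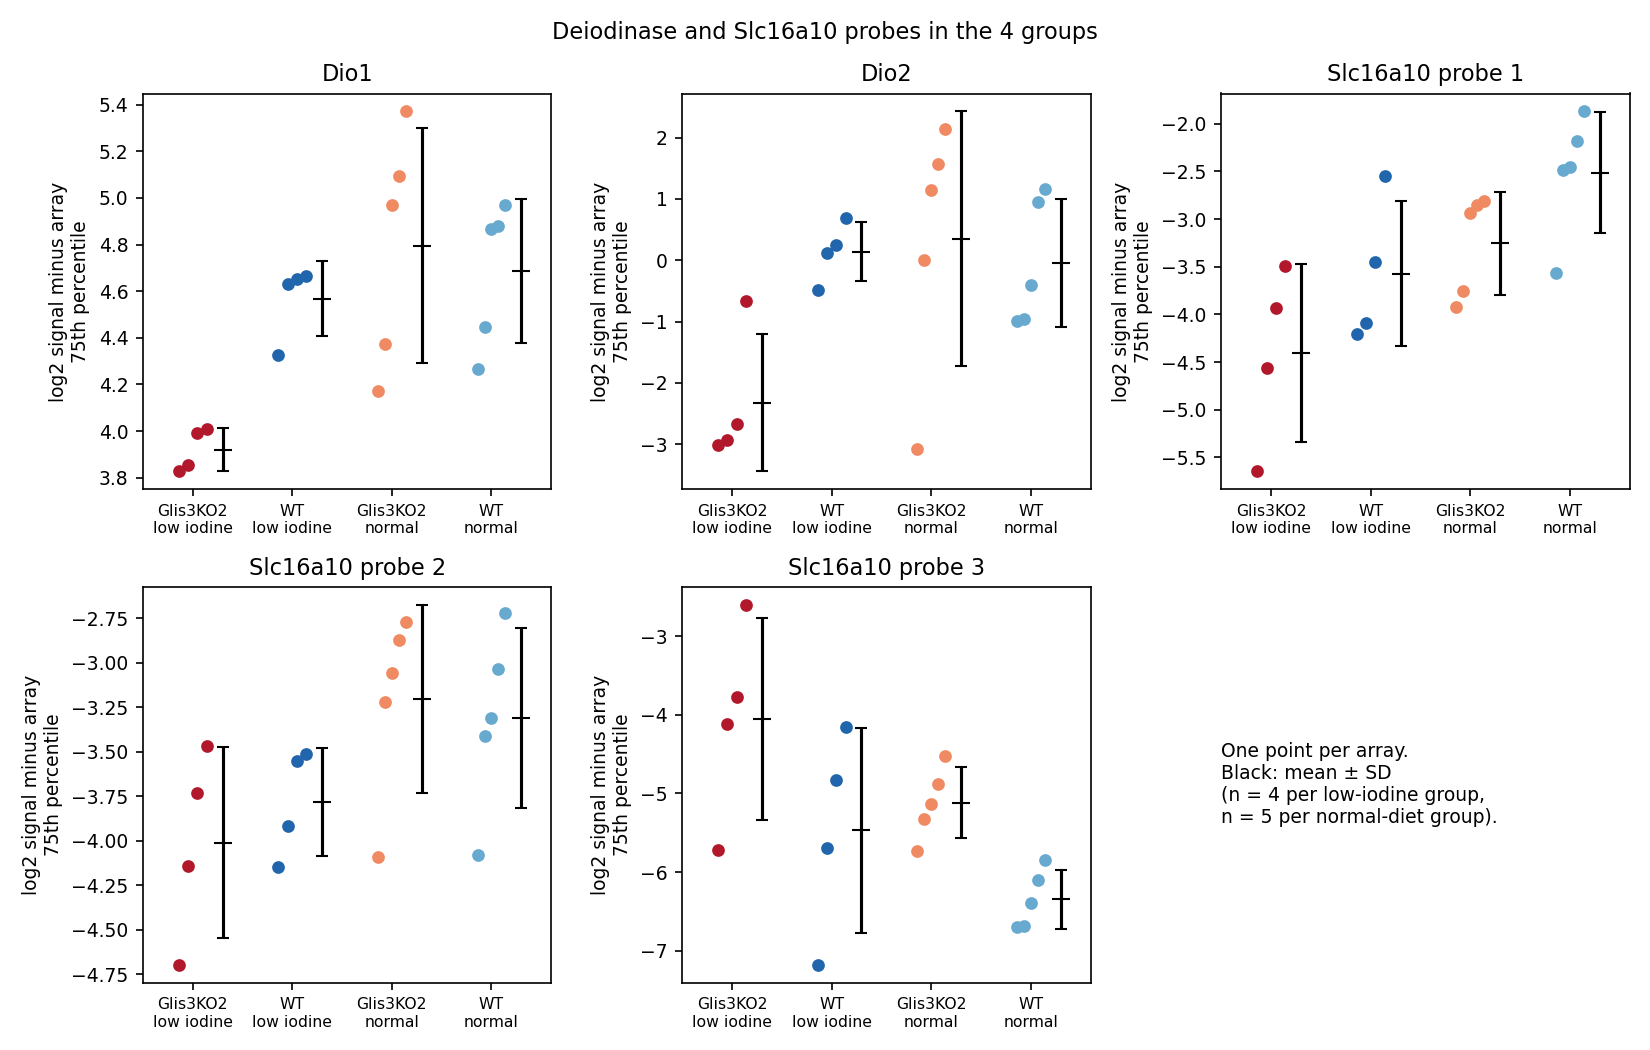
Level of each of the 5 probes on every array (log2 processed signal minus the array's 75th percentile), with group mean ± SD in black. On low iodine the KO2 points of Dio1 and Dio2 lie below all WT points, and on the normal diet the Dio2 points of KO2 run from −3.08 to 2.14.

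Slc16a10 (gene 72472, chr10:40033532-40142270) was read by 3 probes that did not give 1 picture. Probe 1 (A_51_P448618) was well above background on 17 of 18 arrays, probe 2 (A_52_P527924) on 18 and probe 3 (A_52_P527917) on 10. Probe 3 was above background on 3 of 4 KO2 and 2 of 4 WT arrays of the low-iodine diet, and on 3 of 5 KO2 and 2 of 5 WT arrays of the normal diet. Its processed signal reached at most 70.5 on any array, and many of its values are therefore at the edge of what the array measures.

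Probe 1 was lower in KO2 thyroids on both diets as an estimate. On low iodine it lay at −5.65, −3.94, −4.56 and −3.49 in KO2 and at −3.45, −2.54, −4.09 and −4.20 in WT, with overlap. The difference was −0.84 (95% interval −1.84 to 0.17, limma adjusted p = 0.331). Its normal-diet levels were −3.92, −2.93, −2.86, −2.81 and −3.75 in KO2 and −3.56, −2.49, −2.18, −1.87 and −2.46 in WT. Only WT replicate 1 lay among the KO2 values, and the difference was −0.74 (95% interval −1.64 to 0.16, limma adjusted p = 0.583).

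Probe 2 showed next to no difference between the genotypes. On low iodine the levels were −3.73, −4.14, −3.47 and −4.70 in KO2 and −3.51, −4.15, −3.55 and −3.92 in WT (difference −0.23, 95% interval −0.93 to 0.47, limma adjusted p = 0.765). Its normal-diet levels were −4.09, −2.87, −2.77, −3.06 and −3.22 in KO2 and −3.41, −2.72, −3.03, −3.31 and −4.08 in WT (difference 0.11, 95% interval −0.52 to 0.74, adjusted p = 0.949). The sign of both turned in some alternatives, to 0.10 on low iodine with quantile normalization and to −0.04 on the normal diet in the deposited table without scaling.

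Probe 3 was higher in KO2 on both diets as an estimate, the opposite sign to probe 1. On low iodine it lay at −2.60, −4.11, −5.73 and −3.78 in KO2 and at −7.18, −4.16, −5.70 and −4.83 in WT (difference 1.41, 95% interval 0.15 to 2.67, limma adjusted p = 0.162). Its normal-diet levels lay at −5.32, −5.73, −4.52, −4.88 and −5.13 in KO2 and at −6.71, −6.68, −6.10, −5.84 and −6.39 in WT, where every KO2 array was above every WT array. That difference was 1.23 (95% interval 0.10 to 2.36, limma adjusted p = 0.418). Within slides KO2 minus WT of probe 3 was above 0 on all 5, between 0.34 and 2.48 over both diets. With normexp background correction the difference was 0.29 on the normal diet and 0.15 on low iodine.

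**Figure D2:**
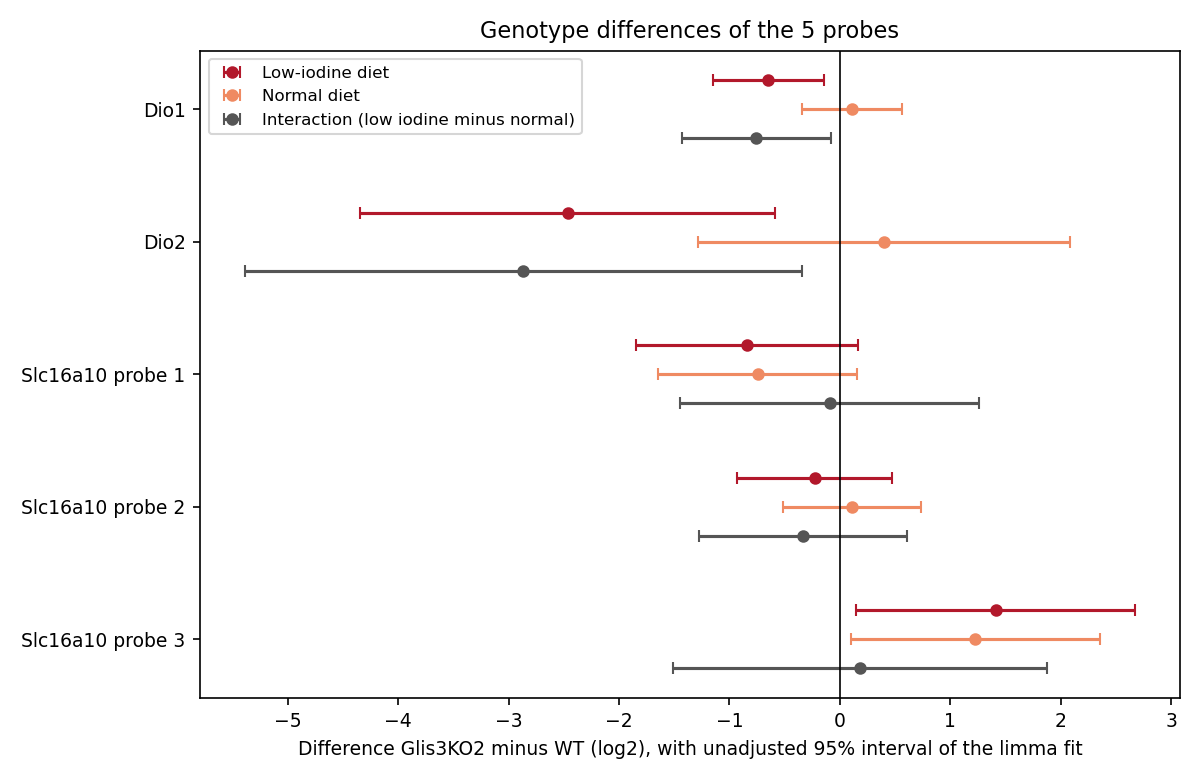
KO2 minus WT of each probe on the low-iodine and the normal diet, and the interaction, on the log2 scale with unadjusted 95% intervals of the limma fit. The intervals of Dio1 and Dio2 lie below 0 on low iodine, those of Slc16a10 probe 3 above 0 on both diets, and none of these differences passed after adjustment.

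The disagreement among the Slc16a10 probes, known from earlier results of these arrays, is described by the difference of 2 probes on the same array, a value in which the scaling cancels, and no test is given for it. Probe 1 minus probe 3 on the normal diet averaged 1.86 ± 0.59 in KO2 and 3.83 ± 0.40 in WT (SD, n = 5 each), with KO2 between 1.38 and 2.79 and WT between 3.14 and 4.20. The genotypes thus differed by −1.97 without overlap, and with normexp background correction by −0.64. Probe 3 was well above background on only 3 of these 5 KO2 and 2 of these 5 WT arrays. On low iodine the same contrast was −0.36 ± 1.85 in KO2 and 1.89 ± 1.31 in WT (SD, n = 4 each), with a difference of −2.25 (−0.53 with normexp) and with overlap. Probe 2 minus probe 3 differed by −1.12 on the normal diet and by −1.64 on low iodine. Probe 1 carries another RefSeq transcript accession than probes 2 and 3 in the array's annotation.

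**Figure D3:**
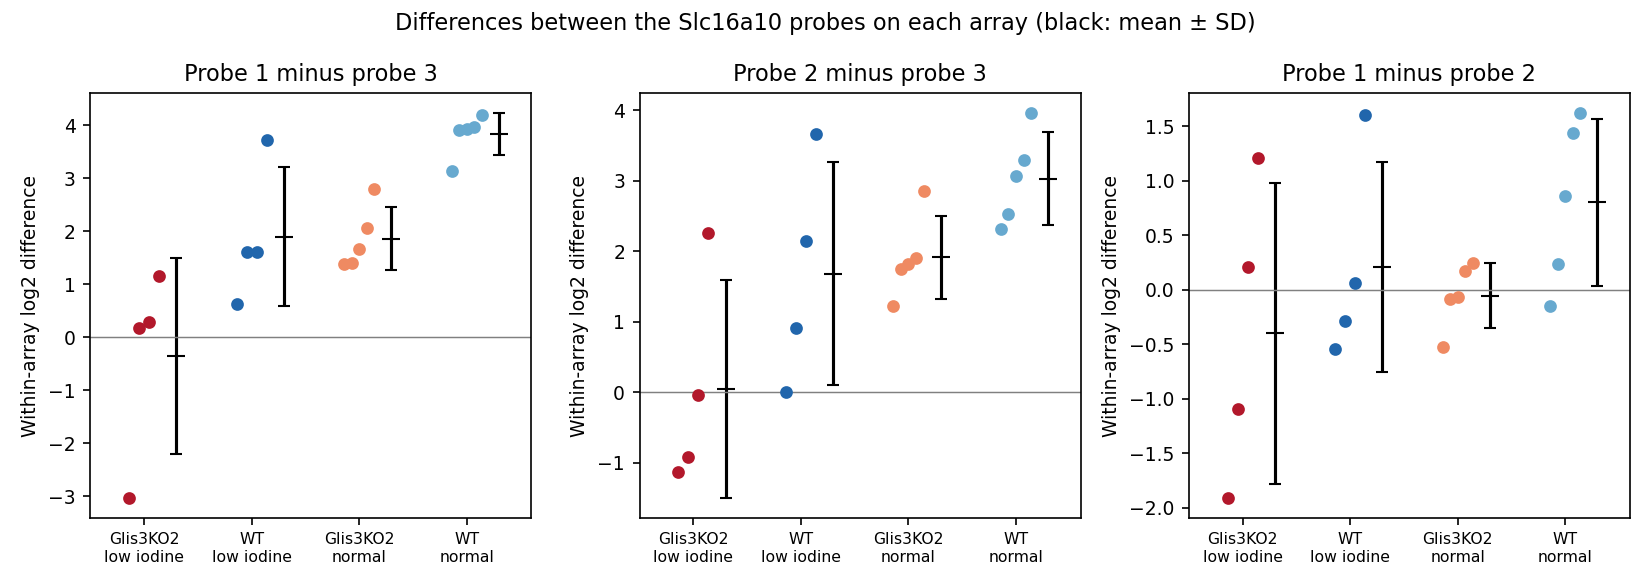
Within-array log2 difference between pairs of Slc16a10 probes, by group, with mean ± SD in black. For probe 1 minus probe 3 on the normal diet all KO2 points lie below all WT points.

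Across diets, low-iodine minus normal-diet differences are confounded with the array set, and most probes were called. In KO2 thyroids 4 of the 5 probes fell, against 27.4% of all tested probes that fell and 74.8% called in either direction. With median scaling the share of all probes that fell was 40.6% in KO2 and 42.0% in WT. Dio1 fell by 0.87 (limma adjusted p = 0.00224), a call lost with quantile normalization (−0.28, adjusted p = 0.204), and Dio2 fell by 2.68 (adjusted p = 0.00871). Slc16a10 probe 1 differed by −1.15 (adjusted p = 0.0290) and probe 2 by −0.81 (adjusted p = 0.0286), and with normexp background correction probe 1 turned to 0.03 and probe 2 to 0.08. Probe 3 was at 1.06 (adjusted p = 0.0992). In WT thyroids 1 of 5 passed, downward, against 26.9% of all probes that fell and 76.5% called in either direction. That was probe 1 at −1.06 (limma adjusted p = 0.0418), which turned to 0.06 with normexp. Dio1 differed by −0.12 (adjusted p = 0.646) and Dio2 by 0.19 (adjusted p = 0.847) in WT, and both signs depend on the scaling. The median over all probes was itself 0.61 in KO2 and 0.73 in WT, and turned to −0.21 in KO2 and −0.25 in WT with median scaling. Relative to the medians of 0.61 and 0.73, Dio1 stood at −1.48 in KO2 and −0.85 in WT, and Dio2 at −3.28 in KO2 and −0.54 in WT. The difference between the genotypes in these diet contrasts is the interaction given above, which no probe passed.

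Dio2 is a known brown fat gene, and brown fat pads lie near the thyroid in the mouse neck, so 6 brown fat markers were read in the same arrays. Their mean level on low iodine lay between −0.59 and 0.19 in KO2 and between −0.49 and 0.48 in WT. Ucp1, the heat-producing uncoupling protein, lay between −2.33 and −1.76 in KO2 and between −1.53 and 0.68 in WT there, without overlap. On the normal diet the marker mean ran from −0.18 to 4.41 in KO2 and from 1.77 to 3.57 in WT, and Ucp1 from −0.86 to 6.66 in KO2 and from 3.97 to 5.50 in WT. KO2 replicate 1, the normal-diet array with the lowest Dio2, had the lowest marker mean. All 6 markers were well above background on all 18 arrays, and none passed in KO2 against WT on either diet. Across the diets, which are confounded with the array set, 5 of 6 were lower on low iodine in KO2, where 27.4% of all probes fell, and 4 of 6 in WT, where 26.9% did.

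The Dio2 level and the mean of these markers went together on the normal diet. Over the 10 arrays Pearson's r was 0.92 (permutation p = 0.00035, adjusted p = 0.0315) and Spearman's rho 0.83 (permutation p = 0.00466, adjusted p = 0.127), with adjustment over 140 relations of 5 probes, 14 marker lists and both diets. Without the 2 arrays farthest from the median marker mean, r was 0.78 over 8 arrays. Within genotypes r was 0.97 in KO2 and 0.72 in WT, over 5 arrays each. On low iodine r was 0.16 over 8 arrays. On the normal diet Dio2 also had r of 0.84 with the adipocyte markers and 0.81 with the endothelial markers (permutation, adjusted p = 0.0833 for each), with rho of 0.68 for adipocyte and 0.85 for endothelial markers. Whether its relation to brown fat markers differs from these was not tested. Slc16a10 probe 2 showed r of 0.89 with the same markers on the normal diet (permutation p = 0.00045, adjusted p = 0.0315), and 0.71 without the 2 farthest arrays. With the marker mean as a covariate, a fit chosen after seeing this relation, Dio2 on low iodine was −2.53 (SE 0.54, limma adjusted p = 0.00939) and on the normal diet 0.19 (adjusted p = 0.938). The covariate had its own slope in each diet, and the low-iodine SE of Dio2 was 0.89 without it. All arrays share the spread estimate, so removing normal-diet scatter that the markers track also lowers the low-iodine SE. That low-iodine p-value is therefore no separate support for the difference.

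**Figure D4:**
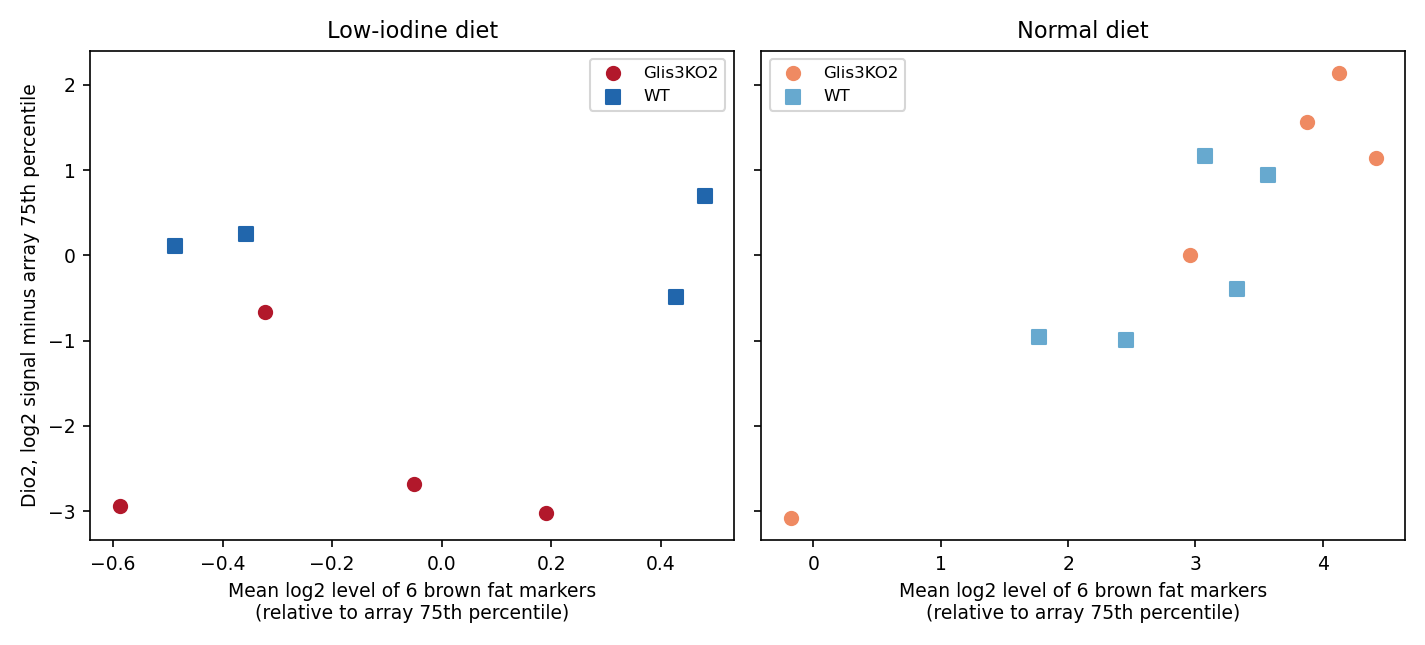
Dio2 level against the mean log2 level of 6 brown fat markers on each array, low-iodine diet on the left and normal diet on the right. On the normal diet KO2 replicate 1 is lowest on both axes, and on low iodine KO2 points separate from WT points on the Dio2 axis while the marker means overlap.

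Other cell types moved with genotype on low iodine. The mean of 5 endothelial markers lay between 0.95 and 1.14 in KO2 and between 1.95 and 2.19 in WT, and 3 of 5 fell, against 4.93% of all tested probes (Cdh5, the vascular cadherin, by 1.47, Tek by 1.33 and Pecam1 by 1.23 on the log2 scale). Of 6 fibroblast markers 3 fell and 1 rose, with the mean between −0.15 and 0.88 in KO2 and between 1.52 and 2.22 in WT. The mean of 5 C cell markers lay higher in KO2, between 1.54 and 2.09, than in WT, between 1.11 and 1.45, and 2 of 5 rose, against 4.49% of all probes (the calcitonin gene Calca at 1.20, limma adjusted p = 0.00113, and Scg2 at 1.37, adjusted p = 0.0165). The mean of 6 adipocyte markers lay between 1.41 and 2.01 in KO2 and between 1.03 and 1.21 in WT, with no marker called. Of 8 follicular cell markers 1 rose (Nkx2-1, a lineage transcription factor, at 0.70) and 1 fell (the iodide importer Slc5a5 by 3.92, limma adjusted p = 3.52e-05). The follicular mean, which includes Slc5a5, lay between 2.66 and 3.30 in KO2 and between 3.15 and 3.47 in WT, with overlap. The median of the 8 follicular marker differences was 0.02, so the lower mean is not shared by most of these markers. On the normal diet no endothelial, C cell or adipocyte marker passed and 3 of 6 fibroblast markers fell, against 0.424% of all probes. Of 5 squamous and basal epithelial markers 1 fell there. Of 8 follicular cell markers 1 rose on the normal diet, where 98 of 36333 probes rose, and none fell. Over the 8 low-iodine arrays no relation of Dio1 or Dio2 to the endothelial, fibroblast, C cell or adipocyte mean passed (permutation, adjusted p of 0.125 to 0.286 for Pearson's r). The genotypes form separate clusters on these means, so this pooled test cannot tell a relation from genotype. Its p-values therefore show neither a relation nor the absence of one, and no pooled r is given. The 4 arrays of each genotype are too few for a test within it. The part of these shifts in the Dio1 and Dio2 differences therefore cannot be told apart from genotype.

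The pathway lists around these genes held few calls, and none on the normal diet. Of 12 thyroid hormone transport genes tested and counted here 1 rose in KO2 on low iodine, where 4.49% of all tested probes rose and 4.93% fell, with a list median of −0.21 against −0.04 over all probes. Slc7a8, the light chain of an amino acid exchanger that also carries thyroid hormone, lay at 3.06, 2.49, 2.63 and 3.01 in KO2 and at 1.48, 1.56, 1.58 and 1.38 in WT. It rose by 1.29 ± 0.29 (SE, limma adjusted p = 0.0104), with 1.03 in the deposited table without scaling (adjusted p = 0.0757). On the normal diet Slc7a8 was at 0.91 without a call (adjusted p = 0.149), and its interaction was 0.39 (adjusted p = 0.755). The brightest probe of each gene stands for it here, as in the marker lists, while the shares set beside the counts are over all tested probes. Fitted with 1 probe per gene, 1398 of 17936 rose and 1286 fell on low iodine, and 249 were called on the normal diet. These are larger shares than those over all probes.

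Among 14 genes of the Slc16 family and its ancillary proteins tested and counted here, 2 fell on low iodine. Of all tested probes 4.93% fell there. The 2 genes were Slc16a7, a pyruvate and lactate transporter, at −0.96 (limma adjusted p = 0.0174), and Bsg, the basigin chaperone of monocarboxylate transporters, at −0.86 (adjusted p = 0.0247). On the normal diet neither was called, with Slc16a7 at −0.73 (adjusted p = 0.155) and Bsg at −0.35 (adjusted p = 0.590). The interaction of Slc16a7 was −0.23 (adjusted p = 0.828). The list median was −0.32, and Bsg and Slc16a7 lost their calls with median scaling (adjusted p of 0.230 for Bsg and 0.0866 for Slc16a7). Dio3, the inactivating deiodinase, was at −0.34 on low iodine (adjusted p = 0.756) and at 0.95 on the normal diet (adjusted p = 0.447). Thus 0 of 3 deiodinases were called, against 9.42% of all tested probes on low iodine and 0.694% on the normal diet. Without WT replicate 2, whose Dio3 level of −0.31 stood apart from the other WT values at −3.07 to −2.80, the low-iodine difference of Dio3 turned to 0.31.

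**Figure D5:**
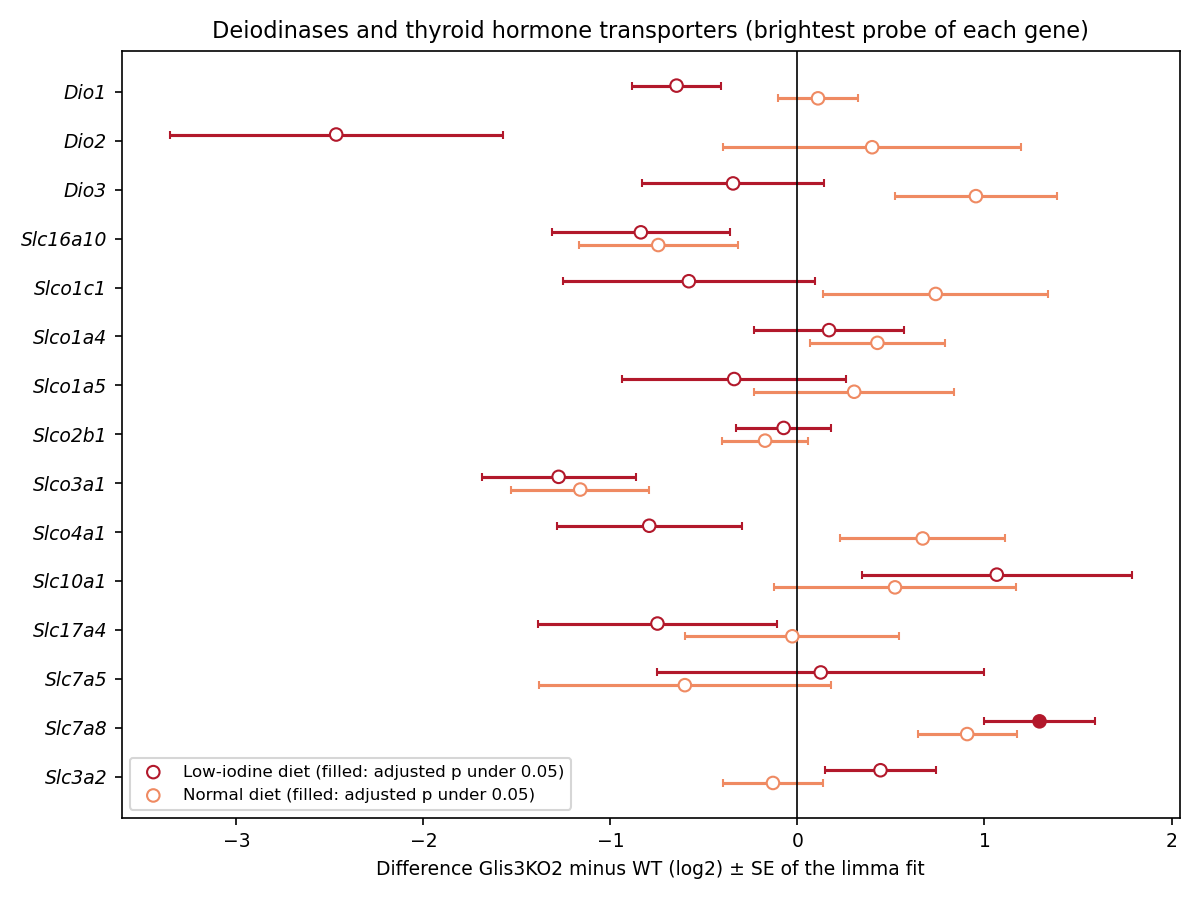
KO2 minus WT on the log2 scale ± SE for the 3 deiodinases and 12 thyroid hormone transport genes, low-iodine diet in dark red and normal diet in orange, filled where the limma adjusted p is under 0.05. Slc7a8, above 0 on low iodine, is the only filled point.

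Deiodinases need selenocysteine. On low iodine 4.93% of all tested probes fell and 4.49% rose, the background for the lists that follow. Of 14 genes of selenoprotein synthesis and selenium supply 1 fell on that diet, Lrp8, a selenoprotein P receptor, and none rose. Its brightest probe gave −0.95 (limma adjusted p = 0.0481, and 0.174 with median scaling), and its other probes gave −2.19 (adjusted p = 0.00133) and −2.13 (adjusted p = 0.00186). Of 6 genes that add ubiquitin to Dio2 or remove it 1 rose, the deubiquitinase Usp20, at 0.73 (limma adjusted p = 0.00609, and 0.309 in the deposited table without scaling), while a second Usp20 probe gave −0.27 (adjusted p = 0.650). Of 15 receptors, cofactors, targets and binding proteins of thyroid hormone 1 rose and 1 fell. Hr, a corepressor and known target of the hormone, fell by 2.09 (limma adjusted p = 0.00239), with KO2 levels of −4.05 to −3.71 and WT levels of −2.34 to −0.87. Klf9, a transcription factor induced by the hormone, rose by 1.03 at its brightest probe (adjusted p = 0.0257, 0.252 in the deposited table and 0.0699 with that diet alone) and by 1.49 at its other probe (adjusted p = 0.000733). The list medians were 0.03, 0.19 and 0.15, against −0.04 over all probes.

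As a description, the genes whose levels most resembled each member over the 18 arrays were ranked after each diet's mean was subtracted. For Dio1 these were Bag1 (r of 0.93), Ciao2a (0.91), Prdx1 (0.89) and Pgk1 (0.88). For Dio2 they were Nnmt (0.86), Ly6i (0.84), Zeb1 (0.84) and Adamts9 (0.83). For probe 1 of Slc16a10 they were Mboat2 (0.82), Laptm5 (0.81), Arhgap15 (0.81) and Trim30d (0.80). These were the highest of 12738 genes ranked for the deiodinases and 12739 for Slc16a10. Among the members, r was 0.49 between Dio1 and Dio2, and between −0.29 and −0.03 for the pairs of Slc16a10 probes. Genotype was not subtracted, so a genotype difference shared by 2 genes enters r and cannot be told apart from another relation. For Dio1 and Dio2, r was 0.31 over the 10 normal-diet arrays and 0.75 over the 8 of low iodine. Zeb1, Adamts9, Laptm5 and Trim30d were themselves called lower in KO2 on low iodine, and the other genes named here were not.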

How the data were processed

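Thyroid RNA of 18 mice was measured on Agilent arrays of 45018 features. Per the submitters' processing notes, Agilent Feature Extraction, version 12, read the scans. The deposited processed signal is an intensity after background subtraction, not log-transformed, and the deposited summary table held the same intensity values without scaling (ratio 1.0). Control spots and outlier-flagged spots were left out, and spots of 1 probe averaged. Log2 intensity minus the array's 75th percentile was computed here from the deposited values. A probe was tested (36333 were) if 4 or more of the 18 arrays had it well above background. Of 41174 probes 28223 matched 1 gene of the GRCm38.p6 table, 0 matched several and 12951 none.

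One limma model (limma 3.58.1, R 4.3.3) of 4 group means over all arrays gave the contrasts. P-values were adjusted with Benjamini-Hochberg over all tested probes, with a threshold of 0.05. In simulated data with 200 changed probes, 25% of changes of 1 on the log2 scale were recovered on low iodine (6 false calls) and 35% on the normal diet (5 false calls). Arrays carry no molecule counts, and their number limits the precision. The members and lists were chosen with earlier results of these data known. Named list genes are at most 4 called members a list and diet, plus Dio3. Some genes are not reported here, and a gene left out of a pathway list on that ground is not in its counts or median. The genes named in the paragraph on other cell types and the sex markers were chosen after their values were seen. For the normexp alternative (offset 50) the median spot signal was used, since the mean signal was not in the files. Alternatives were other scalings, background correction and filters, 1 probe per gene, the arrays of 1 diet or genotype alone, slide and replicate blocks, leaving out each array, and brown fat markers as a covariate, which was added after seeing the data.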

Additional observations from a re-analysis of the deposited data

Results flagged for a closer look

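In the 20 groups of 4 or 5 arrays tested for a single array far from the others, 2 stood out, and chance alone flags about 1 in 20 groups. The Dio1 level of WT replicate 2 on low iodine was 4.33, below the other WT arrays, with a gap to its neighbour of 0.904 of the group's range. That array also had the highest share of spots above background, 90.6%. Without it the Dio1 difference on low iodine was −0.73 (limma adjusted p = 0.0979). The Dio2 level of KO2 replicate 2 on low iodine was −0.66, above the other KO2 arrays, with a gap of 0.854 of the range. Its mean of 8 skeletal muscle markers was 1.58, against −3.18 to −2.31 on the other KO2 arrays of that diet. Its mean of 5 airway markers was 0.31, against −1.90 to −1.01. WT arrays of that diet ran from −2.89 to 3.03 for muscle and from −1.87 to 1.58 for airway. Without KO2 replicate 2 the Dio2 difference on low iodine was −3.02 (limma adjusted p = 0.0557). Their causes were not tested.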

How the results depend on the processing

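Genotype differences of Dio1 and Dio2 on low iodine kept their sign in all alternatives run. Dio2 ran from −2.93 to −1.72 and passed with quantile normalization (−2.93), with the 1 diet alone and with the replicate block (−2.47, limma adjusted p = 0.0430). It also passed with the brown fat covariate (−2.53), a fit chosen after seeing how Dio2 follows these markers on the normal diet, so that pass is no separate support. Leaving out single arrays gave −3.02 to −2.23. Dio1 on low iodine passed with quantile normalization (−0.91, limma adjusted p = 0.00610). On the normal diet Dio1 turned to −0.043 in the deposited table, with −0.034 to 0.27 on leaving out arrays, and Dio2 ran from −0.047 to 1.26. Slc16a10 probe 2 turned to −0.045 on the normal diet (deposited table) and 0.098 on low iodine (quantile), with −0.084 to 0.33 and −0.41 to 0.00106 on leaving out arrays. Interactions turned for probe 1 with median scaling (0.081, arrays left out −0.40 to 0.32), for probe 2 with quantile normalization (0.061) and for probe 3 with normexp (−0.14) and the covariate (−0.23), with arrays left out −0.39 to 0.74. Diet differences depended most on scaling. In WT, Dio2 turned to −0.80 with median scaling and −0.15 in the deposited table (arrays left out −0.050 to 0.49), and Dio1 became −1.10 with median scaling and 0.70 with quantile normalization. Probe 1 in WT turned to 0.060 with normexp and was −1.05 with slide as a random block (limma adjusted p = 0.0504). It ran from −1.40 to −0.85 with arrays left out, and lost its call without any 1 of WT replicates 2 to 5 on the normal diet or 1, 3 or 4 on low iodine. In KO2 it turned to 0.029 with normexp and ran from −1.46 to −0.74, losing its call without replicates 2, 3 or 4 of the normal diet or 1 or 3 of low iodine. Probe 2 turned to 0.27 in WT and 0.079 in KO2 with normexp, and its KO2 call was lost without replicates 2, 3 or 4 of the normal diet or 2 or 4 of low iodine. Probe 3 turned to −0.11 (median) and −1.29 (quantile) in WT and to −0.39 in KO2 (quantile). Dio1 in KO2 was −0.28 with quantile normalization (limma adjusted p = 0.204). Probe 1 minus probe 3 on the normal diet was −0.64 with normexp and ran from −2.20 to −1.85 with arrays left out. Probe 2 minus probe 3 ran from −1.35 to −0.89. Without KO2 replicate 3 of low iodine, probe 3 passed on that diet at 1.97 (limma adjusted p = 0.0363). Hr (0.056, normexp) and Klf9 (−0.0079, deposited table) turned on the normal diet. With 1 array left out Hr ran from −0.34 to 0.15, Klf9 from −0.040 to 0.33 and Dio3 on low iodine from −0.60 to 0.31. On low iodine Bsg lost its call without KO2 replicates 1 or 4 or WT 3 or 4, Klf9 without KO2 2 or 3 or WT 3, and Slc16a7 without WT 4. Lrp8 lost it in 12 of 18 such fits.

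The count of called probes was 252 on the normal diet, 2 with that diet alone, 17 with the replicate block and 60 to 764 with arrays left out (764 without KO2 replicate 4). On low iodine 3423 became 5751 with quantile normalization and 1827 with that diet alone. The interaction's 247 became 127 with median scaling, 846 with quantile normalization and 452 with normexp, and 135 to 263 with arrays left out. With 1 probe per gene the diet counts were 13606 in WT and 13334 in KO2, since fewer features were tested, and probes 2 and 3 of Slc16a10 have no value in that setting. Deviations of same-numbered arrays correlated at −0.10 to 0.38 on the normal diet and 0.04 to 0.11 on low iodine. Arrays of different numbers gave −0.51 to 0.45 on the normal diet and −0.12 to 0.06 on low iodine. The numbers were not taken as pairs in the main fit, and the replicate block was run as an alternative. Other causes were not tested.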
